A study of Homo sapiens with 6 samples.

Results

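The 10 genes described here belong to the transforming growth factor beta (TGF-beta) pathway: the ligands TGFB1 and TGFB2, the latency-protein family member LTBP2, the receptors TGFBR1, TGFBR2 and TGFBR3, the signal transducer SMAD3, the inhibitors SMAD7 and SKIL, and the target gene TGFBI. They were matched by symbol, and all 10 were found among the 24462 gene symbols of the count files and among the 12650 symbols that passed the filter on low counts. Counts come from 3′ mRNA sequencing of MDA-MB 231, an established triple-negative, claudin-low human breast cancer cell line, 48 h after transfection by lipofection. There were 3 groups of 2 libraries each. The first received a negative control (NC) mimic and the second a mimic of the microRNA miR-200a. The third is labelled as a co-transfection of miR-200a and an ELK3 plasmid. The study's methods give the doses, 100 nM of miR-200a and 30 ng of plasmid. The study describes the plasmid as carrying the ELK3 coding region without an intact 3′UTR. No plasmid is named for the first or the second group. An effect of ELK3 and an effect of plasmid transfection as such therefore cannot be told apart. The labels do not say whether the 2 libraries of a group came from separate cultures, so the p-values below measure the spread between these libraries, which may be technical.

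TGF-beta ligands are secreted in a latent complex that is held in the matrix by latency proteins and must be released before the ligand can act. Active ligand brings together the type II receptor TGFBR2 and the type I receptor TGFBR1, with TGFBR3 (betaglycan) as a co-receptor that presents TGFB2, and the type I receptor then phosphorylates the SMAD proteins that carry the signal to the nucleus. In breast cancer cells the pathway is known for driving epithelial-mesenchymal transition and matrix production, and the miR-200 family is known for opposing that transition.

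ELK3, the gene carried by the plasmid, gave 406 and 337 counts in the third group, beside 493 and 505 with miR-200a and 618 and 509 with NC mimic. In these counts its level was thus not higher in the third group than in the second (log2 fold change -0.23 ± 0.15 SE, adjusted p = 0.354). The study itself reports, by quantitative PCR and western blot, that ELK3 mRNA and protein returned to the control level after co-transfection with the plasmid. How reads of the plasmid transcript, which lacks the 3′UTR, were counted is not given in the sources used here, and the third group is called the ELK3-labelled libraries throughout. Libraries held 3055915 to 4868004 counts, so that 3 counts, taken as the floor of detection for counting error only, equalled 0.611 to 0.979 CPM (counts scaled to 1e+06 in each library after TMM normalization). All 5 mesenchymal marker genes were above that floor in every library, and their summed level was 4465 to 4746 CPM with NC mimic, 4510 to 4720 with miR-200a and 3158 to 4088 in the ELK3-labelled libraries. The 2 ELK3-labelled libraries also differed more from each other (root mean square log2 difference 0.56) than the NC mimic (0.40) or the miR-200a pair (0.34). The 6 luminal epithelial markers, of which 3 were at or under the floor in every library and ESR1 was at 0, summed to 57.1 to 66.6, 90.7 to 94.7 and 70.6 to 85.3 CPM in the same order. Of 4 leukocyte markers none was above the floor in every library, with sums of 0.445 to 0.979, 0.611 to 1.25 and 0.705 to 4.03 CPM. Of 5 fibroblast and endothelial markers 1 was above the floor in every library and COL3A1 and CDH5 were at 0 in all 6, with sums of 8.69 to 8.81, 7.47 to 7.95 and 2.37 to 7.05 CPM. The part of these differences in the results below was not tested, and fewer cells expressing a gene and less RNA per cell cannot be told apart in bulk libraries.

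The sequences of the transfected microRNA and of its possible sites in the 10 genes are shown first, since they name the members that carry a seed match. A microRNA pairs with 3′UTRs mainly through its seed, bases 2 to 8, which is in capitals in the mature sequences below (RefSeq, GRCh38.p14). The miR-200 family has 2 seeds that differ in 1 base, and the sequence of miR-200b is given for the other one.
hsa-miR-200a-3p: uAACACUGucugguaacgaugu
hsa-miR-200b-3p: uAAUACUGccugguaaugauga

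The 7 letters that pair with the miR-200a seed, CAGTGTT, were searched on the sense strand in the longest principal 3′UTR of each gene (GENCODE 29, GRCh38). The search found 4 sites in 3 of the 10 genes, printed here with 14 bases before and 9 after, with the match in capitals.
TGFB2, chr1:218441471-218441477, + strand: gagccttggttcatCAGTGTTaaaaaattt
TGFBR1, chr9:99150650-99150656, + strand: ggcagcttttaattCAGTGTTtccttatgt
TGFBR1, chr9:99152699-99152705, + strand: tttcttgaccatggCAGTGTTctggctcca
TGFBR2, chr3:30692252-30692258, + strand: cactgtttgaggacCAGTGTTcccggggtt

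The site of TGFB2 lies in exon 7, at bases 109 to 115 of a 3′UTR of 3257 bases, and is followed by an A, which makes it an 8mer. Those of TGFBR1 (exon 9) start at bases 1345 and 3394 of 4887, and that of TGFBR2 (exon 7) at base 653 of 2535. The match occurred in the 3′UTR of 16.6% of 19133 protein-coding genes and in 19.7% of the 11241 tested genes with an annotated 3′UTR, and 4.27% of the 19133 had an 8mer. The 7 letters of the other family seed, CAGTATT, were present once each in TGFBR1, TGFBR3, SMAD7 and TGFBI, and in 14.7% of all 3′UTRs. A match describes the letters only, and neither search found its letters in TGFB1, LTBP2, SMAD3 or SKIL.

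**Figure D1:**
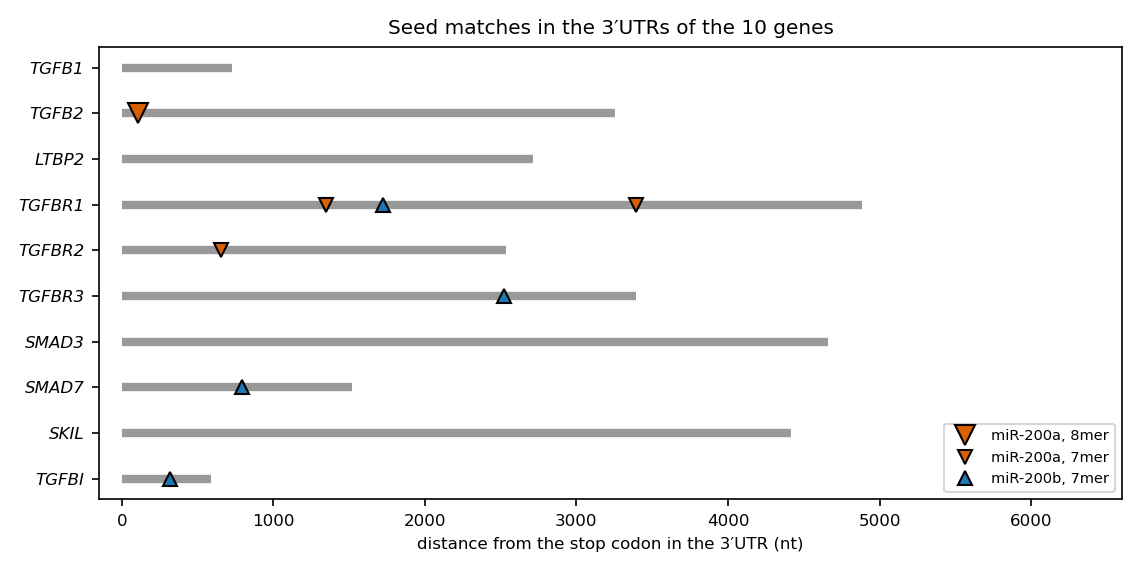
Position of seed matches along the 3′UTR of each of the 10 genes, in nucleotides from the stop codon (x axis); grey bars are the 3′UTRs, downward triangles miR-200a matches (the large one an 8mer) and upward triangles miR-200b matches. TGFB2, TGFBR1 and TGFBR2 are the members with a miR-200a match.

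Across the 3 comparisons, the ligand TGFB2 and the target TGFBI fell in both comparisons of the ELK3-labelled libraries, and none of the 10 genes passed the test between miR-200a and NC mimic alone. With miR-200a against NC mimic, 0 of 10 had an adjusted p under 0.05 in edgeR's quasi-likelihood test, where 0.269% of all tested genes did, and 3 of 10 had an unadjusted p under 0.05 (background 9.24%). DESeq2 called 1 member, TGFB2. A model that held only these 4 libraries called 5, TGFB2 and TGFBR2 lower and TGFBR1, TGFBR3 and SMAD3 higher, with backgrounds of 3.17% for lower and 4.72% for higher calls (7.89% in all). In the ELK3-labelled libraries against miR-200a, 4 of 10 were called, all lower (TGFB2, TGFBR3, SMAD3 and TGFBI), and the background was 5.91% for lower and 7.03% for higher calls (12.9% in all). Against NC mimic, 3 of 10 were called, all lower (TGFB2, SMAD7 and TGFBI), with backgrounds of 5.95% and 6.92% (12.9% in all). The 10 genes were chosen with earlier results of these data known, so their counts beside any background are no test of the set. With only the 2 groups compared in the model, TGFBR3 and TGFBI were called lower against miR-200a (background 2.21%) and TGFB2 and TGFBI against NC mimic (background 2.44%). Upper-quartile normalization turned the split over all genes from 889 higher and 748 lower to 622 higher and 882 lower against miR-200a, and from 876 and 753 to 677 and 902 against NC mimic, while its median shift stayed at or under 0.07 in size.

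The median log2 fold change of the 10 genes was -0.07 with miR-200a against NC mimic, -0.51 in the ELK3-labelled libraries against miR-200a and -0.49 against NC mimic, beside -0.02, 0.02 and 0.01 over all tested genes. The last 2 comparisons share the ELK3-labelled libraries, and each other pair of comparisons shares a group too, so the 3 sets of values are not independent. Every member was below 0 against miR-200a, except that TGFB1 without miR-200a replicate 2, TGFBR2 without ELK3-labelled replicate 2, and SKIL without that library or without miR-200a replicate 1 were at or above 0. The 2 libraries of each group did not overlap for 7 members against miR-200a, all 7 lower, where 28% of all tested genes were lower without overlap. Against NC mimic 8 did not overlap, all lower, with a background of 27.6%.

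**Figure D2:**
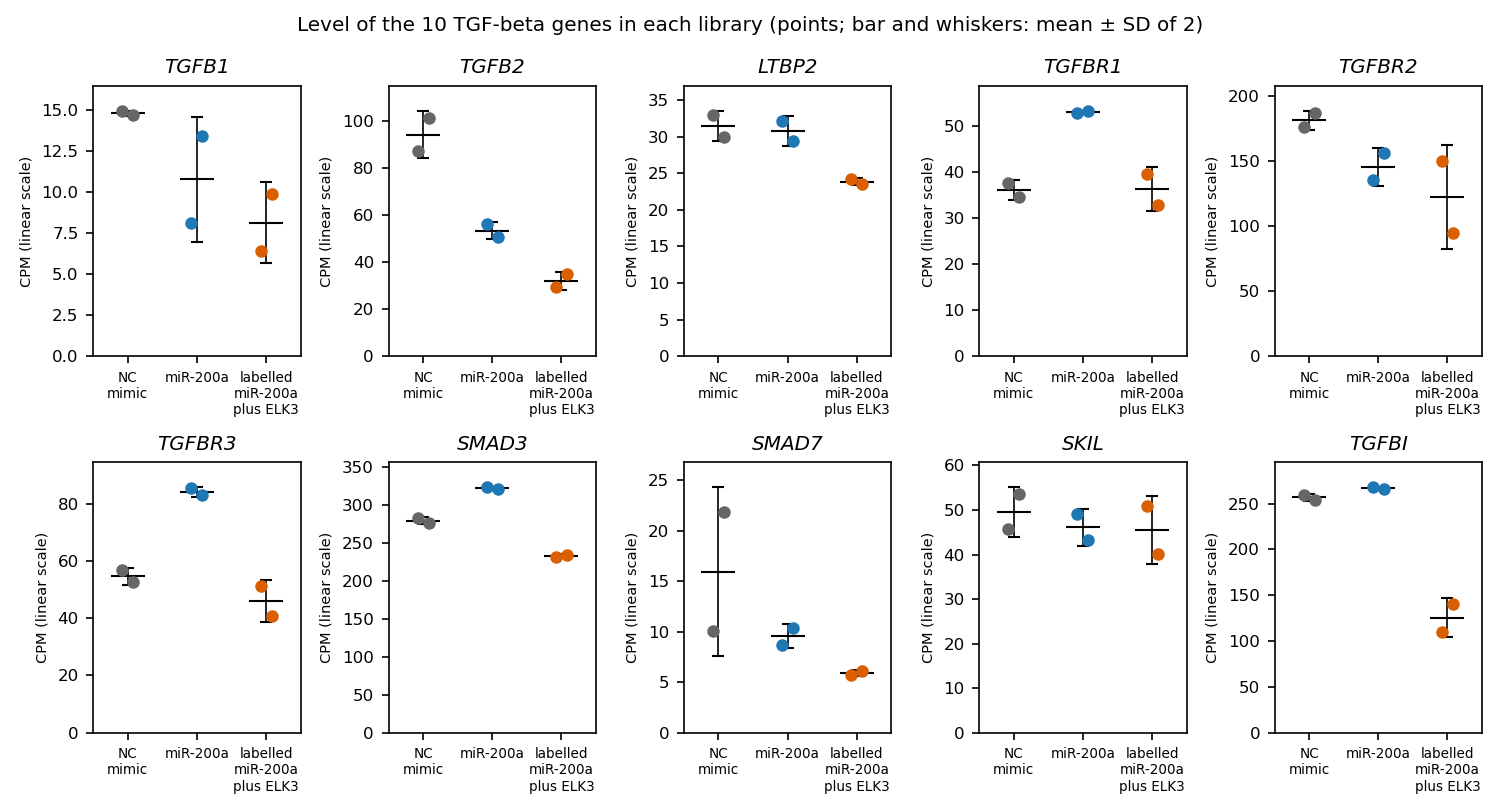
Level of each of the 10 genes in CPM (y axis, linear from 0) in the 2 libraries of each group (points), with the mean and SD of 2. TGFB2 steps down from group to group, TGFBR1, TGFBR3 and SMAD3 are highest with miR-200a, and TGFBI separates the ELK3-labelled libraries from the other 4.

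Among the ligands, TGFB2 (chr1:218346235-218444619, + strand) stepped down from group to group. It stood at 87.1 and 101 CPM with NC mimic and at 56.1 and 50.7 with miR-200a, while the ELK3-labelled libraries gave 29.4 and 34.8, and no 2 groups overlapped. In the ELK3-labelled libraries it was 2.93-fold lower than with NC mimic (log2 fold change -1.55 ± 0.17 SE, 95% interval -1.93 to -1.17, adjusted p = 0.000898). It was also lower there than with miR-200a alone (log2 -0.73 ± 0.17, adjusted p = 0.0227). The step from NC mimic to miR-200a was of similar size on the log2 scale, -0.82 ± 0.16, but missed the threshold with an adjusted p of 0.0798. The call against NC mimic was kept in each fit that left out 1 library (adjusted p at most 0.0290). That against miR-200a was lost without NC mimic replicate 1 (0.0617) or 2 (0.0614), without miR-200a replicate 1 (0.206) or 2 (0.160), and in a model of the 2 groups alone (0.0637).

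TGFB2-OT1, a noncoding RNA annotated on the same strand inside the 3′UTR of TGFB2 (chr1:218442626-218443996), has a line of its own in the files. Its counts were 59.8% to 72.7% of those of TGFB2 in every library, and how reads were divided between the overlapping genes is not given in the sources used here, so both values are uncertain and not independent. TGFB2-OT1 stood at 67.0 ± 9.47 CPM (SD, n = 2) with NC mimic, 32.2 ± 2.61 with miR-200a and 20.5 ± 0.556 in the ELK3-labelled libraries. Its log2 fold change was -1.05 ± 0.18 (SE) with miR-200a against NC mimic (adjusted p = 0.0463), -0.65 ± 0.19 for the ELK3-labelled libraries against miR-200a (adjusted p = 0.0488) and -1.70 ± 0.19 against NC mimic (adjusted p = 0.000898). The first of these calls was lost in the fit without NC mimic replicate 2. The antisense gene TGFB2-AS1 was lower in the ELK3-labelled libraries than with NC mimic as well (log2 -1.10 ± 0.31, adjusted p = 0.0426).

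TGFB1, the ligand most widely made in adult tissues (chr19:41301587-41353911, - strand), was covered by only 27 to 67 counts a library. It stood at 14.9 and 14.7 CPM with NC mimic and at 8.10 and 13.4 with miR-200a, while the ELK3-labelled libraries gave 6.39 and 9.87. The NC mimic libraries were the highest, but the other 2 groups overlapped and no comparison passed the test. Against NC mimic the ELK3-labelled libraries gave a log2 fold change of -0.86 ± 0.34 (adjusted p = 0.114). TGFB1 overlaps HNRNPUL1 and other genes on the opposite strand, and whether the counting used strand is not given in the sources used here. LTBP2 (chr14:74498170-74612378, - strand), a microfibril protein of the latency family that does not itself bind latent TGF-beta, was at 33.0 and 30.0 CPM with NC mimic and at 32.2 and 29.3 with miR-200a, while the ELK3-labelled libraries gave 24.2 and 23.5. The last 2 libraries were the lowest, but neither of their comparisons passed the test (log2 -0.37 ± 0.19, 95% interval -0.78 to 0.05, against miR-200a, adjusted p = 0.210). The interval for miR-200a against NC mimic reached from -0.45 to 0.37.

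The receptors TGFBR1 and TGFBR3 were highest with miR-200a, while TGFBR2 was highest with NC mimic. The co-receptor TGFBR3 (chr1:91680343-91906335, - strand) stood at 56.8 and 52.5 CPM with NC mimic and at 85.3 and 82.9 with miR-200a, while the ELK3-labelled libraries gave 51.2 and 40.9. It was lower in the ELK3-labelled libraries than with miR-200a (log2 fold change -0.87 ± 0.16 SE, adjusted p = 0.0103), a call that was lost without miR-200a replicate 1 (0.133) or 2 (0.126). Its higher level with miR-200a than with NC mimic, 0.62 ± 0.16, had an adjusted p of 0.205 in the model of all 6 libraries and of 0.000379 in that of the 4 libraries compared.

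TGFBR1, the type I receptor (chr9:99104038-99154192, + strand), was highest with miR-200a as well, with a smaller difference from NC mimic. It was at 37.6 and 34.6 CPM with NC mimic and at 52.7 and 53.2 with miR-200a, while the ELK3-labelled libraries gave 39.5 and 32.9. The miR-200a libraries lay above the other 4, which overlapped each other, and TGFBR1 is the member with 2 of the seed matches printed above. The log2 fold change was 0.55 ± 0.17 for miR-200a against NC mimic (adjusted p = 0.316, and 0.00840 in the 4-library model), and -0.55 ± 0.17 for the ELK3-labelled libraries against miR-200a (adjusted p = 0.0580). The latter passed with upper-quartile normalization (adjusted p = 0.0399) and with no filter on low counts (0.0465). It did not pass with DESeq2 (0.111), with limma (0.0551) or in the model of the 2 groups alone (0.115). TGFBR2, the ligand-binding type II receptor (chr3:30606502-30694142, + strand), was at 177 and 187 CPM with NC mimic and at 135 and 156 with miR-200a, while the ELK3-labelled libraries gave 151 and 94.5. Both NC mimic libraries were above the other 4. Of the 2 ELK3-labelled libraries, 1 lay between the miR-200a libraries and the other below both. Its log2 fold change against NC mimic was -0.32 ± 0.20 with miR-200a (adjusted p = 0.696, and 0.0260 in the 4-library model) and -0.57 ± 0.20 in the ELK3-labelled libraries (adjusted p = 0.0835).

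**Figure D3:**
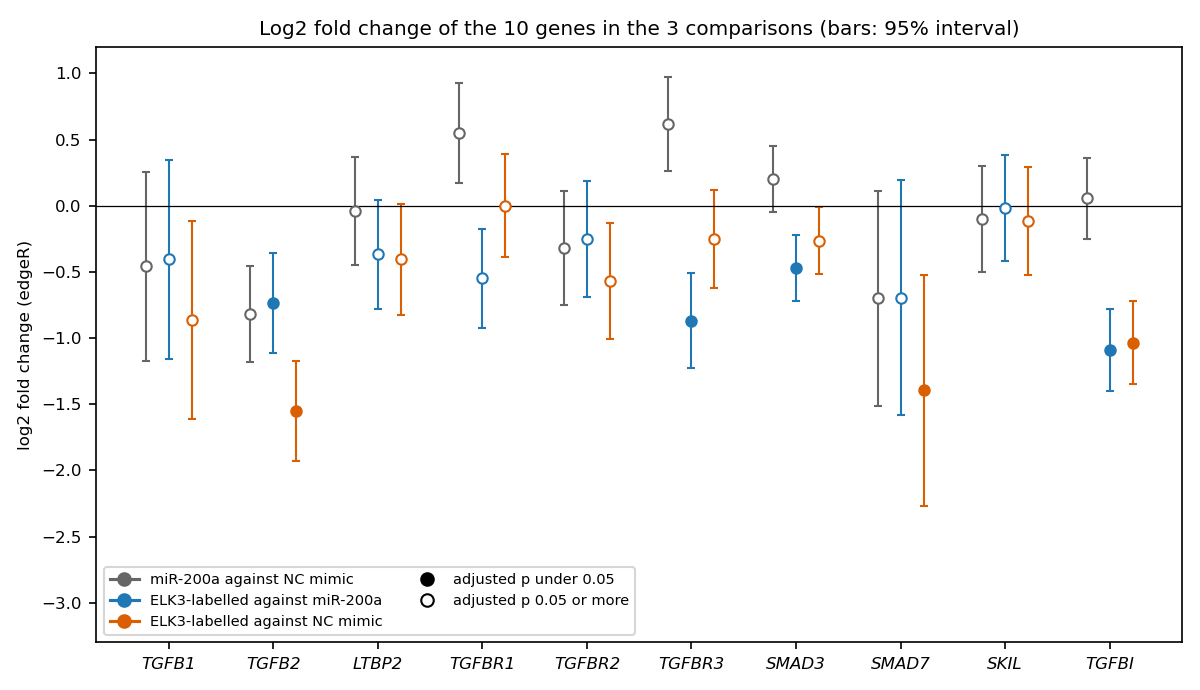
Log2 fold change (y axis) of each of the 10 genes for miR-200a against NC mimic (grey), the ELK3-labelled libraries against miR-200a (blue) and against NC mimic (orange), with 95% intervals; filled points have an adjusted p under 0.05. The 7 filled points are all below 0 and none is grey.

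SMAD3, which carries the signal to the nucleus (chr15:67063763-67195195, + strand), was at 283 and 276 CPM with NC mimic and at 323 and 321 with miR-200a, while the ELK3-labelled libraries gave 231 and 234. The libraries of each group lay close together and no groups overlapped. SMAD3 was lower in the ELK3-labelled libraries than with miR-200a (log2 fold change -0.47 ± 0.11 SE, adjusted p = 0.0253). The call was lost without NC mimic replicate 1 (0.0796) or 2 (0.0782), without miR-200a replicate 1 (0.226) or 2 (0.230), and in the model of the 2 groups alone (0.0734).

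SMAD7, the inhibitory SMAD that the pathway itself induces (chr18:48919853-48952052, - strand), had 24 to 67 counts a library. It was at 10.0 and 21.9 CPM with NC mimic and at 8.72 and 10.4 with miR-200a, while the ELK3-labelled libraries gave 5.68 and 6.11. The ELK3-labelled libraries were the lowest, and NC mimic replicate 2 stood well above all others. SMAD7 was lower in the ELK3-labelled libraries than with NC mimic (log2 -1.39 ± 0.39, 95% interval -2.27 to -0.52, adjusted p = 0.0427). Without NC mimic replicate 2 the log2 fold change was -0.76 (adjusted p = 0.327), and the call was also lost without NC mimic replicate 1 (0.0539), without miR-200a replicate 1 (0.0834) or 2 (0.0858), in the model of the 2 groups alone (0.0839) and with limma (0.0585).

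SKIL, the SnoN repressor of SMAD-driven transcription (chr3:170357678-170396835, + strand), was at 45.7 and 53.5 CPM with NC mimic and at 49.0 and 43.2 with miR-200a, while the ELK3-labelled libraries gave 50.9 and 40.2. All 3 groups overlapped. Its intervals were -0.50 to 0.30 for miR-200a against NC mimic, -0.42 to 0.39 for the ELK3-labelled libraries against miR-200a and -0.52 to 0.29 against NC mimic (adjusted p = 0.931, 0.960 and 0.706).

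TGFBI, a secreted matrix protein named for its induction by TGF-beta (chr5:136028895-136063818, + strand), fell in both comparisons of the ELK3-labelled libraries. It stood at 259 and 254 CPM with NC mimic and at 268 and 266 with miR-200a, while the ELK3-labelled libraries gave 110 and 140. The first 4 libraries lay within a narrow band, far above the other 2. TGFBI was 2.13-fold lower than with miR-200a (log2 fold change -1.09 ± 0.14 SE, 95% interval -1.40 to -0.78, adjusted p = 0.00257), and its log2 fold change against NC mimic was -1.04 ± 0.14 (adjusted p = 0.00238). Between miR-200a and NC mimic it was 0.06 ± 0.14, with an interval of -0.25 to 0.36. Against miR-200a the call was lost without miR-200a replicate 1 (0.0748) or 2 (0.0686), and against NC mimic without NC mimic replicate 1 (0.0599) or 2 (0.0547), fits in which the lone library left is assumed to vary like the other groups.

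Other genes of the pathway were taken from lists of ligands, latency and activation proteins, receptors, SMADs, inhibitors and targets, in all 52 genes, of which 43 were tested. With miR-200a against NC mimic 0 of 43 were called, where 0.269% of all tested genes were. DESeq2 called 1 of them, the activin receptor gene ACVR2B, among 88 genes called in all. The model of these 4 libraries called 8, 4 higher and 4 lower, with backgrounds of 4.72% for higher and 3.17% for lower calls. In the ELK3-labelled libraries 12 of 43 were lower and 2 higher than with miR-200a, and 13 were lower and 3 higher than with NC mimic. Over all tested genes 5.91% were called lower and 7.03% higher in the first of these comparisons, and 5.95% and 6.92% in the second. The lists too were chosen with earlier results of these data known, so these counts are no test of the lists. The median log2 fold changes of the 43 were -0.01, -0.38 and -0.17. The targets held most of the lower genes, 8 of 17 tested against miR-200a and 9 against NC mimic, and latency and activation proteins held 3 of 6 in both. No receptor (of 3 tested) and no SMAD (of 3) was called in either.

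Of the called targets, several encode matrix proteins or enzymes acting on them. FN1, which encodes fibronectin, was at 485 ± 9.53 CPM (SD, n = 2) with NC mimic, 321 ± 1.26 with miR-200a and 108 ± 16.3 in the ELK3-labelled libraries, and its log2 fold change against miR-200a was -1.58 ± 0.13 SE (adjusted p = 0.000288). Between miR-200a and NC mimic FN1 gave -0.59 with an adjusted p of 0.115. LOX, a collagen cross-linking enzyme, was at 99.5 ± 12.9, 86.7 ± 1.61 and 27.5 ± 10.7 CPM in the same order of groups. CTGF, a matricellular protein, gave -0.93 ± 0.15 (adjusted p = 0.00614), and COL4A2, a basement membrane collagen, -0.61 ± 0.12 (adjusted p = 0.0137). The collagen genes COL1A1 (-0.60 ± 0.24, adjusted p = 0.120) and COL4A1 (-0.54 ± 0.19, adjusted p = 0.0861) did not pass against miR-200a.

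Called targets that encode transcription factors were BHLHE40, JUNB and SNAI2, while KLF10 did not pass (log2 -0.95 ± 0.30, adjusted p = 0.0648). BHLHE40 had the largest difference of the 14 called genes, from 76.9 ± 2.77 CPM with miR-200a to 19.6 ± 7.45 in the ELK3-labelled libraries (log2 -1.97 ± 0.22, adjusted p = 0.00154). JUNB went from 333 ± 3.73 to 128 ± 41.2 CPM (log2 -1.38 ± 0.19, adjusted p = 0.00293), and SNAI2, the transition factor Slug, gave -1.06 ± 0.16 (adjusted p = 0.00446). FN1 and BHLHE40 passed in all 6 fits that left out 1 library, in both comparisons of the ELK3-labelled libraries. COL4A1 and HMGA2 passed against NC mimic only, in opposite directions (log2 -0.78 ± 0.19 and 0.60 ± 0.15), and the differences between the comparisons were not tested.

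Of the latency and activation proteins, LTBP1, which holds latent ligand in the matrix, gave -1.03 ± 0.20 (log2, adjusted p = 0.0114) in the ELK3-labelled libraries against miR-200a, LTBP4 -0.99 ± 0.21 (adjusted p = 0.0170), and THBS1, the latent TGF-beta activator thrombospondin-1, -1.06 ± 0.18 (adjusted p = 0.00789). The inhibitors and the remaining ligands held the exceptions. PMEPA1, an inhibitor that TGF-beta itself induces, rose from 86.6 to 125 ± 12.0 CPM (log2 0.52 ± 0.14, adjusted p = 0.0394), a call that held in 4 of 13 alternative fits, whereas the corepressor TGIF1 fell (log2 -1.09 ± 0.29, adjusted p = 0.0370). The ligand GDF11 rose (log2 1.17 ± 0.30, adjusted p = 0.0324), but passed in only 1 of 6 fits that left out 1 library. Except for FN1 and BHLHE40, every call against miR-200a among these 14 genes was lost without either miR-200a library.

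**Figure D4:**
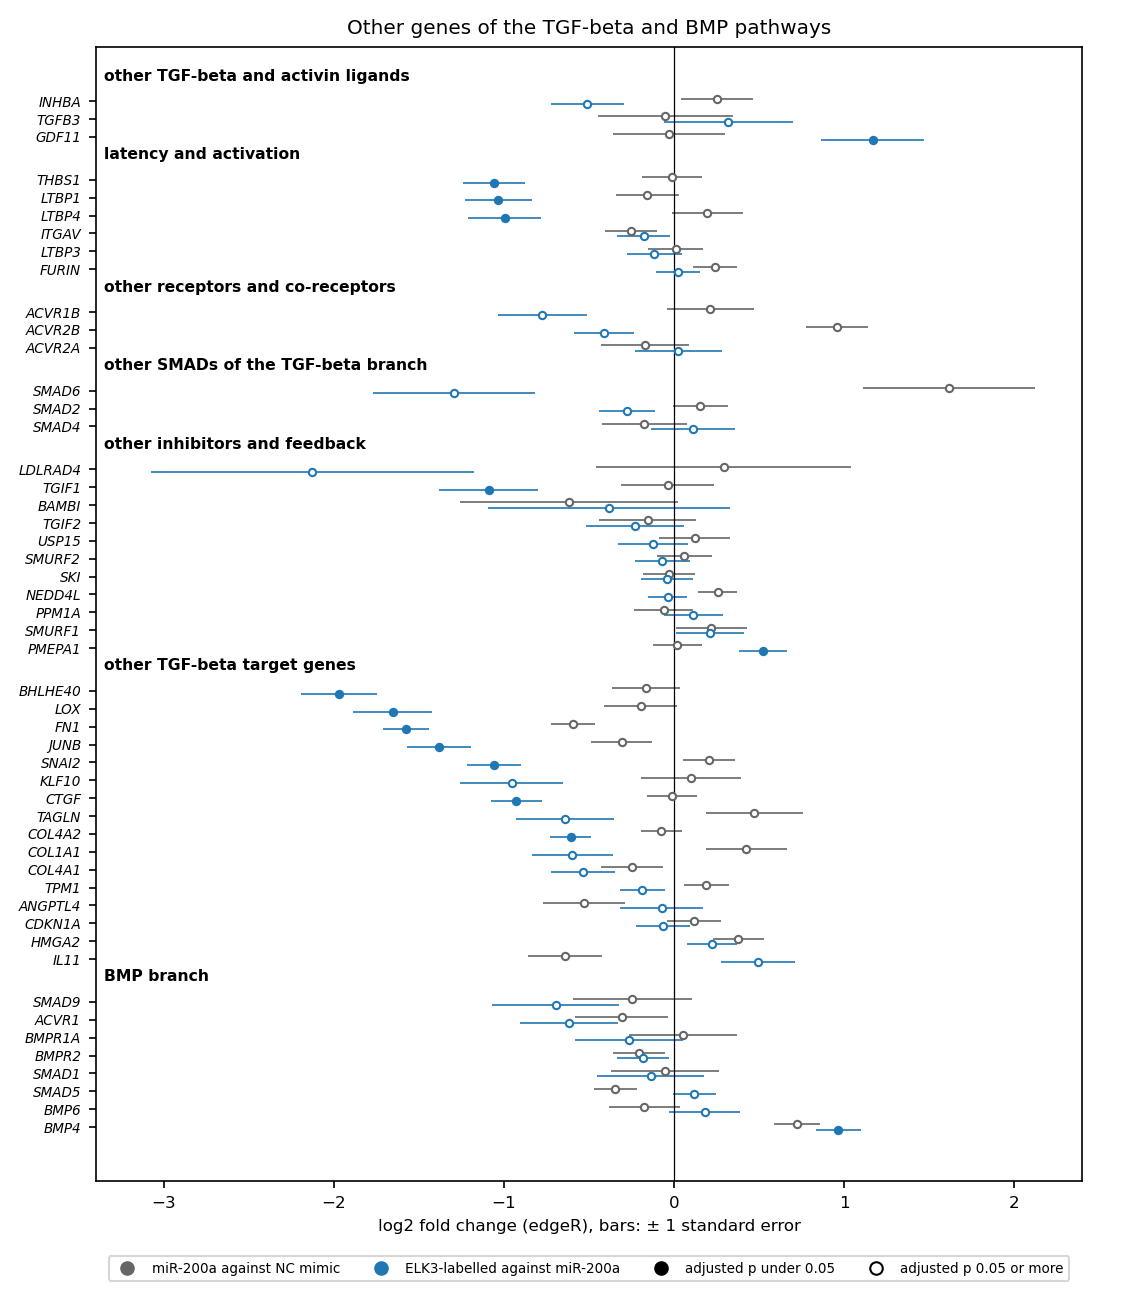
Log2 fold change (x axis) with its SE of tested genes on the pathway lists, for miR-200a against NC mimic (grey) and the ELK3-labelled libraries against miR-200a (blue); filled points have an adjusted p under 0.05. No grey point is filled, and the filled blue points left of 0 are mostly targets and latency proteins.

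TGFB2 had the smallest single p-value of the 10 genes over the 3 comparisons, that of the ELK3-labelled libraries against NC mimic, and the genes whose log2 CPM was most like its own over the 6 libraries, among 9936 compared, were MKLN1 (Pearson's r = 0.992), RHOT1 (0.991) and TGFB2-OT1 (0.990). These values describe 6 points that share library, group and depth, and the last gene overlaps TGFB2.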

How the data were processed

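The authors sequenced QuantSeq 3′ mRNA libraries of MDA-MB 231 cells and deposited raw read counts per gene symbol, 1 file a library. The submitters' processing notes name Bowtie2, edgeR and the build hg19, and the study names ExDEGA for its analysis. The counting program, annotation and use of strand are not given in the sources used here. Groups came from the labels, 2 libraries each. Lines of the same symbol (286 symbols) were summed. Genes passed filterByExpr at a minimum count of 10, and all 6 libraries entered 1 model (edgeR 4.0.16 in R 4.3.3, TMM, quasi-likelihood test, 3 residual degrees of freedom, Benjamini-Hochberg over 12650 genes, threshold 0.05). Levels are CPM. Alternatives were DESeq2 1.42.0, no filter, upper-quartile normalization, a model of the 2 groups compared, limma 3.58.1 on quantile-normalized log2 (count + 1), a replicate block and leaving out each library. Scripts were tested on simulated data with 200 changed genes. Sites were searched in GENCODE 29 on GRCh38, and gene positions are of that build, since the files hold symbols only. The 10 members and the gene lists were chosen with earlier results of these data known. Besides the members, the text names list genes with an adjusted p under 0.05 in a comparison and the 3 genes most like the member of smallest p. It also names ELK3, the cell markers, and some list genes that did not pass with all 6 libraries in the model, among them COL1A1 and KLF10. TGFB2-AS1 and ACVR2B were named after their values were seen. A gene of the target list that is in the counts is not reported here by name.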

Additional observations from a re-analysis of the deposited data

How the results depend on the processing

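With 2 libraries a group and 3 residual degrees of freedom, the number of calls depended on the model. For miR-200a against NC mimic, 34 genes, 0 of the 10 members and 0 pathway genes were called. These became 88, 1 and 1 with DESeq2, 230, 1 and 2 with no filter on low counts, and 983, 5 and 8 in a model of the 2 groups alone. Leaving out 1 library at a time gave 0 to 1010, 0 to 5 and 0 to 7. For the ELK3-labelled libraries against miR-200a, 1637 genes, 4 members and 14 pathway genes became 542, 2 and 10 in the 2-group model and 31 to 4684, 0 to 6 and 2 to 21 without 1 library, and no filter called 2490 genes. Against NC mimic, 1629, 3 and 16 became 587, 2 and 10 in the 2-group model and 96 to 4675, 1 to 6 and 4 to 22 without 1 library, and no filter called 2525 genes. The causes were not tested.

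Libraries of the same number did not deviate together (correlations -0.003, -0.036 and -0.11 in the 3 comparisons). A fit with the replicate block called 13 genes for miR-200a against NC mimic, and 0, 3 and 3 members in the 3 comparisons, SMAD3 against miR-200a being lost (adjusted p = 0.0549). Crossing the numbers of the ELK3-labelled libraries, a choice made after seeing the data, called 22 genes and 0, 4 and 4 members.

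Some log2 fold changes that were not called changed sign. For miR-200a against NC mimic, CTGF became 0.00838 without the filter, 0.00143 in the 2-group model and 0.0284 with limma, THBS1 0.0105, 0.000182 and 0.00801, and GDF11 0.0099 with crossed numbers. Without 1 library at a time, SKIL ranged from -0.21 to 0.014, LTBP2 from -0.10 to 0.036, CTGF from -0.038 to 0.011, THBS1 from -0.071 to 0.053, GDF11 from -0.26 to 0.32, TGIF1 from -0.12 to 0.044 and PMEPA1 from -0.071 to 0.11. For the ELK3-labelled libraries against miR-200a these ranges were -0.78 to 0.0094 for TGFB1, -0.64 to 0.016 for TGFBR2 and -0.21 to 0.11 for SKIL. Against NC mimic, TGFBR1 became -0.00875 with DESeq2, -0.0593 with upper-quartile normalization, -0.0016 in the 2-group model, -0.00578 with limma and -0.00325 with crossed numbers, and ranged from -0.14 to 0.11 without 1 library, SKIL from -0.29 to 0.038.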

Other observations

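The bone morphogenetic protein (BMP) branch, which signals through other SMADs and can oppose TGF-beta, held 1 called gene among 8 tested of 11 listed in each comparison of the ELK3-labelled libraries, a share of 12.5% where 12.9% of all tested genes were called. BMP4, a secreted ligand of that branch, had 1741 and 1516 counts in the ELK3-labelled libraries, beside 1005 and 908 with miR-200a and 558 and 348 with NC mimic. In the order NC mimic, miR-200a and ELK3-labelled its level was 119 ± 7.58, 197 ± 16.7 and 384 ± 39.6 CPM (SD, n = 2). The groups did not overlap, and BMP4 stepped up in the order in which TGFB2 stepped down. BMP4 rose in the ELK3-labelled libraries against miR-200a (log2 0.97 ± 0.13 SE, adjusted p = 0.00336 in edgeR's quasi-likelihood test) and against NC mimic (1.69 ± 0.14, adjusted p = 0.000177). With miR-200a against NC mimic the log2 fold change was 0.73 ± 0.14 with an adjusted p of 0.0715, while DESeq2 called it, as did a model of these 4 libraries (adjusted p = 9.05e-07). The call against miR-200a was lost without miR-200a replicate 1 (0.0765) or 2 (0.0971). The BMP receptor genes ACVR1, BMPR1A and BMPR2 and the signal transducers SMAD1, SMAD5 and SMAD9 did not pass the test in any comparison with all 6 libraries in the model, nor did BMP6. The model of the 4 libraries compared called SMAD5 lower with miR-200a than with NC mimic (log2 -0.32, adjusted p = 0.00852).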
